A study of Mus musculus with 10 samples.

Results

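Interferon-stimulated genes were followed in RNA sequencing libraries of mouse peritoneal macrophages, phagocytes that live in the fluid of the abdominal cavity. The 43 genes were taken by symbol from a list of the family, and all 43 were among the 54532 genes of the deposited table. They were read in 3 libraries labelled aged Trem1-/- (replicates 1, 2 and 3), 3 aged wild-type libraries (replicates 3, 4 and 6) and 4 young wild-type libraries (replicates A, B, C and E). Trem1 encodes an activating receptor of myeloid cells, and the study asked how its deletion changes macrophage gene expression with age. The labels give the groups as young or aged and as wild type or TREM1 knockout. They state no age in months, sex, strain, batch, deleted exons or purification step, and no young Trem1-/- group was among the samples. Whether each library is from its own mouse is not stated, so the p-values cover the spread among these libraries, part of which may be technical.

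Interferons are secreted when cells sense microbial nucleic acids, or by activated lymphocytes in the case of interferon gamma. Type I interferons act through the receptor chains IFNAR1 and IFNAR2 and the kinases JAK1 and TYK2. These lead a complex that holds STAT2 and IRF9 to the interferon-stimulated response element (ISRE), whereas interferon gamma signals to the gamma-activated site (GAS). The target genes encode sensors, antiviral enzymes, membrane restriction factors, large GTPases and feedback regulators, and resident macrophages hold many of them at a basal level.

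Promoters are shown for the pair of genes with the largest rise and the pair with the largest fall in aged wild type, among those that passed and have a promoter in the RefSeq table (GRCm38.p6). Each runs from 250 bases before to 50 bases after the annotated start, in lower case, with capitals at every match on either strand to the ISRE, searched as GAAA, 2 bases of any kind and GAAA, or to the GAS, searched as TTCNNNGAA. Ifit3 lies at chr19:34583279-34583578, plus strand, Ifit2 at chr19:34550444-34550743, plus strand, Oas1a at chr5:120907476-120907775, minus strand and Bst2 at chr8:71537423-71537722, minus strand.
Ifit3: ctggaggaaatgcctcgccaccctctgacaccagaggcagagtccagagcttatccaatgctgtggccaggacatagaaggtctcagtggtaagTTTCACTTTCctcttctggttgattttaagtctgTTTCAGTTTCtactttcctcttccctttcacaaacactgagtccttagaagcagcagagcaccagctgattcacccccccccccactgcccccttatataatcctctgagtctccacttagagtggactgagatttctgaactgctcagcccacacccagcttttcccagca
Ifit2: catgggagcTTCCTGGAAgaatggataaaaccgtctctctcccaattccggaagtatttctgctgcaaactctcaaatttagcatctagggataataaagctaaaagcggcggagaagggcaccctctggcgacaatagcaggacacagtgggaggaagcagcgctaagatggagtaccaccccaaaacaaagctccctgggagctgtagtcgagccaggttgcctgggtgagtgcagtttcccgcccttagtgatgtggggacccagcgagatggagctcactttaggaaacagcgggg
Oas1a: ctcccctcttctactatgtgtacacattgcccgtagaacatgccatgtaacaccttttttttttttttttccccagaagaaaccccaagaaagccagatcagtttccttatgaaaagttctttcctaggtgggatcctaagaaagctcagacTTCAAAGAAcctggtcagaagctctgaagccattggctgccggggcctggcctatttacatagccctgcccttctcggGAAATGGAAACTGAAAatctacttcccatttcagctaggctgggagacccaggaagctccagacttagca
Bst2: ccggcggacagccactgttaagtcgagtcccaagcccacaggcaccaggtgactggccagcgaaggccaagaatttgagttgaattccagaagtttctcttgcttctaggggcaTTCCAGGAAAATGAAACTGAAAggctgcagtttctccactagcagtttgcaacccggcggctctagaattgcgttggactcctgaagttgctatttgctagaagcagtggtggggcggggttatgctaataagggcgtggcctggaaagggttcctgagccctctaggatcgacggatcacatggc
Ifit3 held 2 ISRE matches, both on its minus strand, which begin 156 and 122 bases before the start. Ifit2 held 1 GAS match, 241 bases before the annotated start, and its second annotated window held neither motif. Oas1a held 2 overlapping ISRE matches 20 and 14 bases before the start, and a GAS match 98 bases before it. In Bst2 a GAS match overlaps the first of 2 overlapping ISRE matches, 136 to 124 bases before the start. Of the 43 genes, 35 had a promoter in the table. An ISRE match was present in 22 of these (62.9%) and in 3.99% of all 27025 genes with a promoter of the same length. A GAS match was present in 10 (28.6%), against 9.55% of all genes. The genes were picked as interferon-stimulated, so motif shares above those of all genes are not an independent result. Of the genes called between aged and young wild type, 3 of 5 higher ones and 3 of 3 lower ones with a promoter held an ISRE match, so this motif was present on both sides. A match describes these letters and is not evidence of binding.

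The libraries held 2663744 to 5603498 reads in genes. Trem1 itself had 23.5, 106 and 13.8 normalized counts in the libraries labelled Trem1-/-, 64.0, 15.3 and 27.0 in aged wild type, and 14.8, 8.005, 12.01 and 24.4 in young wild type. The labelled genotype was thus not visible as a loss of counts. A count over the whole gene does not test for a partial deletion, and the genotype is used as labelled. Macrophage markers were present in every library, and the 12 markers summed to 64251 to 82830 normalized counts in aged Trem1-/-, 24345 to 39939 in aged wild type and 75197 to 82081 in young wild type. The 12 B cell markers summed to 6558 to 13593, 14481 to 22552 and 2658 to 5769 in the same 3 groups, and the 14 T and NK cell markers to 62.3 to 127, 324 to 541 and 52.3 to 105. With limma 10 of 12 macrophage markers were lower, and 12 of 12 B cell markers and 9 of 9 tested T and NK cell markers higher, in aged than in young wild type. Between aged Trem1-/- and aged wild type, 9 macrophage markers were higher, and 5 B cell and 7 T and NK cell markers lower, in aged Trem1-/-. Erythroid markers summed to 17.2 to 57.7 normalized counts in aged Trem1-/-, 473 to 23701 in aged wild type and 9.30 to 751 in young wild type. Mesothelial and fibroblast markers summed to 14.3 to 503, 642 to 689 and 12.3 to 506 in these groups. These shifts accompany every result below, and their part in it was not tested. In bulk RNA, fewer cells of a type and less RNA per cell cannot be told apart.

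In aged against young wild type, genes of the family passed in both directions, as did all genes tested. The helicase sensor Ddx58, the nucleic acid sensor Zbp1, Ifit2, Ifit3 and the GTPases Igtp and Ifi47 were higher in aged wild type, while Oas1a, Oas2, Bst2 and Ifitm3 were lower. Of the 43 genes, 39 had a mean of at least 10 normalized counts and were tested, and 10 of these 39 (25.6%) passed limma's adjusted p of 0.05 over all 11506 genes tested. The background was 33.3% of all genes, 14.3% higher and 19.0% lower. With limma the share of these 39 genes that passed was thus below it. The median SE of the 39 was 0.25, beside 0.19 over all genes. The median log2 fold change of the 39 was -0.031, beside -0.020 over all genes, with 19 genes above 0 and 20 below. At an unadjusted p under 0.05 there were 15 of the 39, against 43.7% of all genes. The aged and young libraries did not overlap for 12 of 39 genes (30.8%, against 40.3% of all genes). Of these, 8 were higher in aged wild type (18.4% of all genes) and 4 lower (21.9% of all genes). edgeR and DESeq2 on the recovered reads called 10 and 12 members, each with 32.6% of all genes. DESeq2 gave Rsad2 no adjusted p in any comparison, so 38 members were tested with it. The authors' deposited table put 6 members above and 4 below the young level at an adjusted p under 0.05. There 32 members did not pass and 1, Rsad2, had no adjusted p. Of all its genes with an adjusted p, 21.9% passed, 10.6% above and 11.2% below, so the members' share was not below the background in that table. Irf1 was among the higher ones there (adjusted p = 0.0497 in the authors' deposited table) and Ifit3 was not.

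**Figure D1:**
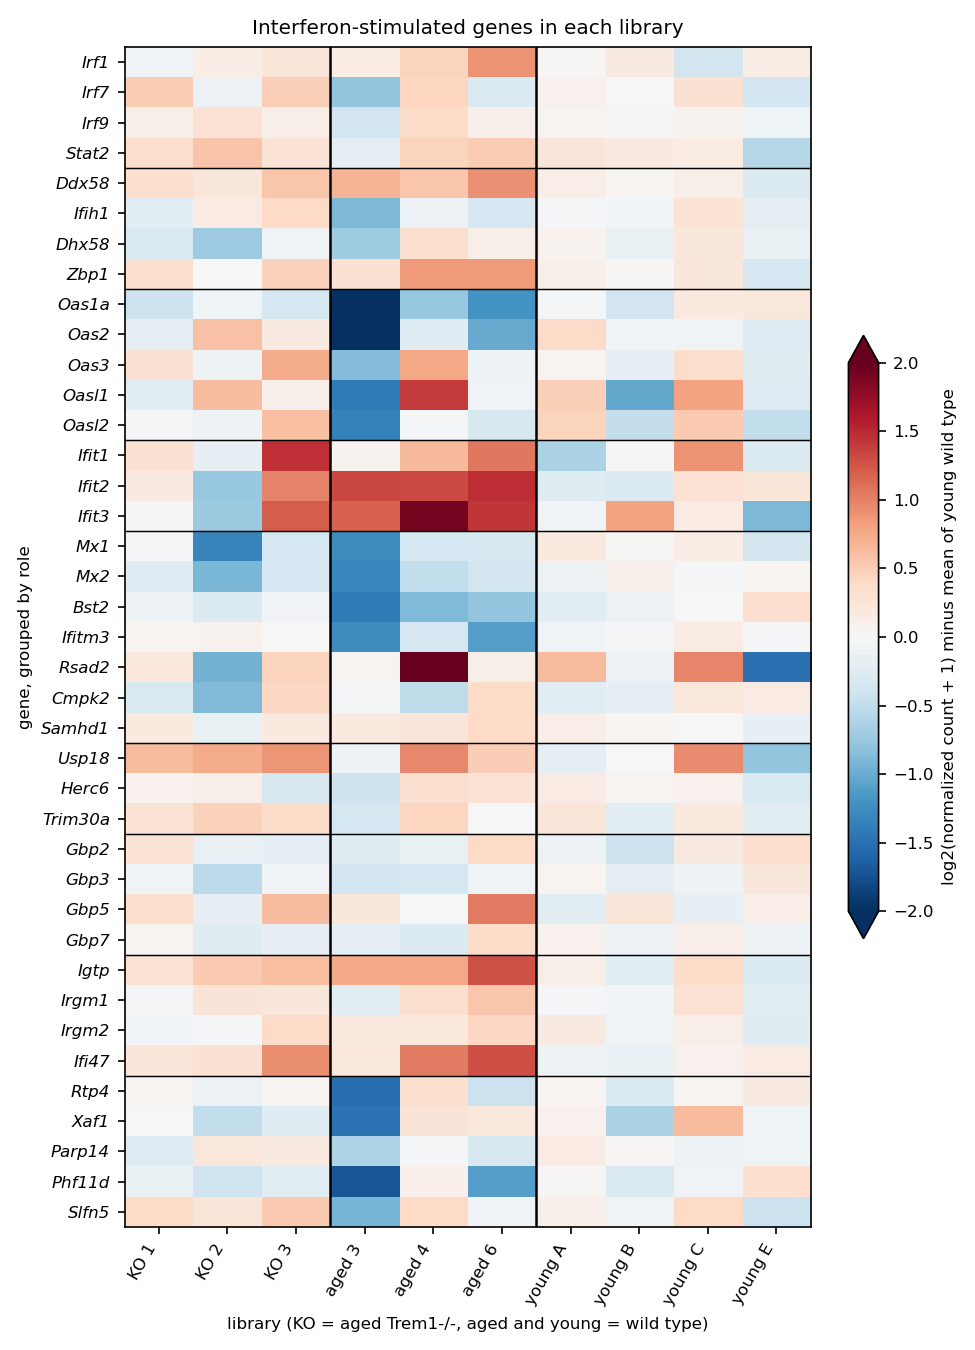
Log2(normalized count + 1) of the 39 tested genes (rows, grouped by role) in each of the 10 libraries (columns), minus the mean of the 4 young wild-type libraries; colours stop at -2 and 2. The aged wild-type replicate 3 column is the bluest, with a median of -0.38 over the 39 genes, against 0.32 and 0.12 in aged wild-type replicates 4 and 6.

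Values by library are given in the order of replicates named above, as the authors' normalized counts. Fold changes are differences of log2(normalized count + 1), which understate changes of genes with few counts. Both aged comparisons use the same 3 aged wild-type libraries, so a low or high value there moves both, in opposite directions.

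The 4 transcription factors that carry the signal to the genome did not pass with limma over all 10 libraries in either aged comparison. Irf1, which is induced by interferon gamma and activates ISRE and related sites, had 281, 330.1 and 353 normalized counts in aged Trem1-/-, 329, 404 and 555 in aged wild type, and 302, 338, 232 and 331 in young wild type. Its aged wild-type values reached above the young ones in replicates 4 and 6 but not in replicate 3, and it missed the threshold (log2 fold change 0.49 ± 0.18 SE, limma adjusted p = 0.0569). Irf7, the amplifier of type I interferon production, had 190.04, 123 and 187 normalized counts in aged Trem1-/-, 76.8, 180.1 and 109 in aged wild type, and 141, 134, 165 and 102 in young wild type. Aged wild-type replicate 4 was above all 4 young libraries and replicate 3 below all of them (log2 fold change -0.22 ± 0.27 SE, limma adjusted p = 0.564). Irf9, the DNA-binding partner of STAT2, averaged 258 ± 18.6 normalized counts in aged Trem1-/-, 238 ± 59.9 in aged wild type and 228 ± 12.005 in young wild type (SD, n = 3, 3 and 4). Stat2 averaged 214 ± 23.1 normalized counts in aged Trem1-/-, 199 ± 48.1 in aged wild type and 166 ± 38.3 in young wild type (SD, n = 3, 3 and 4), and its log2 fold change in aged against young wild type was 0.26 ± 0.22 SE, limma adjusted p = 0.387.

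Of the 4 nucleic acid sensors, 2 were higher in aged than in young wild type. Ddx58 (ENSMUSG00000040296.15, GRCm38 chromosome 4, 40203773 to 40239828, minus strand) encodes RIG-I, a helicase that detects viral RNA. It had 249, 229.9 and 290.2 normalized counts in aged Trem1-/-, 315, 290.3 and 372 in aged wild type, and 215, 203, 213 and 160.4 in young wild type. Every aged wild-type library lay above every young one, and the libraries of aged Trem1-/- lay between the groups, with replicate 3 just below the lowest aged wild-type library. Ddx58 had a log2 fold change of 0.72 ± 0.14 SE, limma adjusted p = 0.00244, in aged against young wild type, and of -0.34 ± 0.15 SE, limma adjusted p = 0.128, in aged Trem1-/- against aged wild type. Zbp1 (ENSMUSG00000027514.14, GRCm38 chromosome 2, 173206612 to 173218923, minus strand), a sensor of left-handed nucleic acids that triggers cell death, had 139.97, 109.8 and 153 normalized counts in aged Trem1-/-, 137, 201 and 200.3 in aged wild type, and 119, 112, 129.7 and 87.2 in young wild type. All 3 aged wild-type libraries were above the 4 young ones, with replicate 3 nearest to them. Zbp1 had a log2 fold change of 0.67 ± 0.18 SE, limma adjusted p = 0.0165, in aged against young wild type, and of -0.41 ± 0.20 SE, limma adjusted p = 0.168, in aged Trem1-/- against aged wild type. Ifih1, which encodes the RNA sensor MDA5, and Dhx58, which encodes its partner LGP2, did not pass in either comparison. Dhx58 averaged 76.7 ± 17.3 normalized counts in aged Trem1-/-, 95.4 ± 32.8 in aged wild type and 97.8 ± 12.8 in young wild type (SD, n = 3, 3 and 4). Ifih1 averaged 156 ± 33.4 normalized counts in aged Trem1-/-, 106 ± 27.6 in aged wild type and 143 ± 19.7 in young wild type (SD, n = 3, 3 and 4), with log2 fold changes of -0.45 ± 0.20 in aged against young wild type and 0.57 ± 0.22 in aged Trem1-/- against aged wild type (limma adjusted p = 0.105 and 0.0884).

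Of the 5 genes of the OAS family, Oas1a and Oas2 were lower in aged than in young wild type, and higher in aged Trem1-/- than in aged wild type. OAS enzymes sense double-stranded RNA and make short oligoadenylates that activate RNase L. Oas1a (ENSMUSG00000052776.10, GRCm38 chromosome 5, 120896256 to 120907521, minus strand) had 83.8, 105 and 87.2 normalized counts in aged Trem1-/-, 25.6, 65.5 and 48.5 in aged wild type, and 109.8, 85.6, 128 and 130.2 in young wild type. The 3 aged wild-type libraries were below all others, and aged Trem1-/- overlapped young wild type. Oas1a had a log2 fold change of -1.35 ± 0.27 SE, limma adjusted p = 0.003, in aged against young wild type, and of 1.06 ± 0.29 SE, limma adjusted p = 0.0269, in aged Trem1-/- against aged wild type. Oas1a shares 57.6% of its 50-base stretches with its paralog Oas1g, so reads of these genes may be divided between them. Oas2 (ENSMUSG00000032690.16, GRCm38 chromosome 5, 120730333 to 120749853, minus strand) had 139, 242 and 181 normalized counts in aged Trem1-/-, 39.7, 134 and 79.1 in aged wild type, and 209, 154, 153 and 134 in young wild type. Aged wild-type replicate 4 reached the lowest young library, so those groups overlapped, whereas all 3 aged Trem1-/- libraries were above aged wild type. Oas2 had a log2 fold change of -1.08 ± 0.34 SE, limma adjusted p = 0.0276, in aged against young wild type, and of 1.27 ± 0.36 SE, limma adjusted p = 0.0307, in aged Trem1-/- against aged wild type. Its call in the first of these was lost without aged wild-type replicate 3 or 6 or young replicate A or C (limma adjusted p up to 0.108). With edgeR Oas2 missed the threshold there (adjusted p = 0.052). Without any 1 of 5 libraries Oas1a lost its call in aged Trem1-/- against aged wild type, and without any 1 of 4 Oas2 did (limma adjusted p up to 0.087 and 0.106). Fitted on the 2 aged groups alone, Oas1a and Oas2 missed it there (limma adjusted p = 0.073 and 0.0851), a fit in which 6.31% of all genes were higher in aged Trem1-/-.

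The other OAS genes did not pass. Oas3 had 97.1, 72.9 and 132 normalized counts in aged Trem1-/-, 42.2, 134 and 72.8 in aged wild type, and 81.1, 69.6, 99.7 and 66.2 in young wild type, so aged wild-type replicates 3 and 4 were the lowest and the highest of the 10 libraries. Oasl2 had 125, 117 and 193 normalized counts in aged Trem1-/-, 48.6, 122 and 101 in aged wild type, and 173, 89.9, 181 and 89.5 in young wild type, with log2 fold changes of -0.57 ± 0.35 in aged against young wild type and 0.74 ± 0.37 in aged Trem1-/- against aged wild type (limma adjusted p = 0.227 and 0.186). Oasl1, which in the mouse limits translation of Irf7 mRNA, had 7.15, 13.6 and 9.18 normalized counts in aged Trem1-/-, 2.56, 24.01 and 8.09 in aged wild type, and 12.2, 3.69, 15.6 and 6.97 in young wild type. Its 104 reads over 10 libraries leave an SE of 0.64 on the log2 fold change in aged against young wild type.

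The IFIT genes, a cluster on chromosome 19 whose proteins bind viral RNA and block translation, had the largest rise among the genes of the family that passed, from few reads. Ifit2 (ENSMUSG00000045932.12, GRCm38 chromosome 19, 34550694 to 34576419, plus strand) had 13.3, 6.41 and 24.1 normalized counts in aged Trem1-/-, 30.7, 30.6 and 34.1 in aged wild type, and 9.59, 9.24, 14.4 and 13.9 in young wild type. The 3 aged wild-type libraries were above every other library, and aged Trem1-/- replicate 3 was nearest to them. Ifit2 had a log2 fold change of 1.38 ± 0.38 SE, limma adjusted p = 0.0159, in aged against young wild type. Between aged Trem1-/- and aged wild type it was -1.24 ± 0.40 SE, limma adjusted p = 0.0532, which missed the threshold, while DESeq2 gave an adjusted p of 0.0415 there. Ifit3 (ENSMUSG00000074896.3, GRCm38 chromosome 19, 34583531 to 34588731, plus strand) had 7.15, 4.01 and 18.4 normalized counts in aged Trem1-/-, 17.9, 30.6 and 21.6 in aged wild type, and 6.97, 13.5, 8.41 and 3.49 in young wild type. Aged wild type did not overlap young wild type but overlapped aged Trem1-/- replicate 3. Ifit3 had a log2 fold change of 1.51 ± 0.51 SE, limma adjusted p = 0.0413, in aged against young wild type, and of -1.36 ± 0.55 SE, limma adjusted p = 0.105, in aged Trem1-/- against aged wild type. The call in aged against young wild type was lost without any 1 of 7 libraries, the 3 aged wild-type ones, young replicates A, C and E, and aged Trem1-/- replicate 1 (limma adjusted p up to 0.112). After TMM rescaling it had an adjusted p of 0.0501 (limma). Without aged Trem1-/- replicate 3, Ifit2 and Ifit3 passed as lower in aged Trem1-/- (log2 fold change -1.67 and -1.90, limma adjusted p = 0.0184 and 0.0393), where 5.50% of all genes were lower. Ifit3 shares 51.2% of its 50-base stretches with Ifit3b, and the 2 genes had 134 and 19 reads in all. Ifit1, the cap-sensing member, had 9.20, 6.41 and 21.8 normalized counts in aged Trem1-/-, 7.68, 12.004 and 16.2 in aged wild type, and 4.36, 7.39, 14.4 and 5.81 in young wild type and did not pass.

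**Figure D2:**
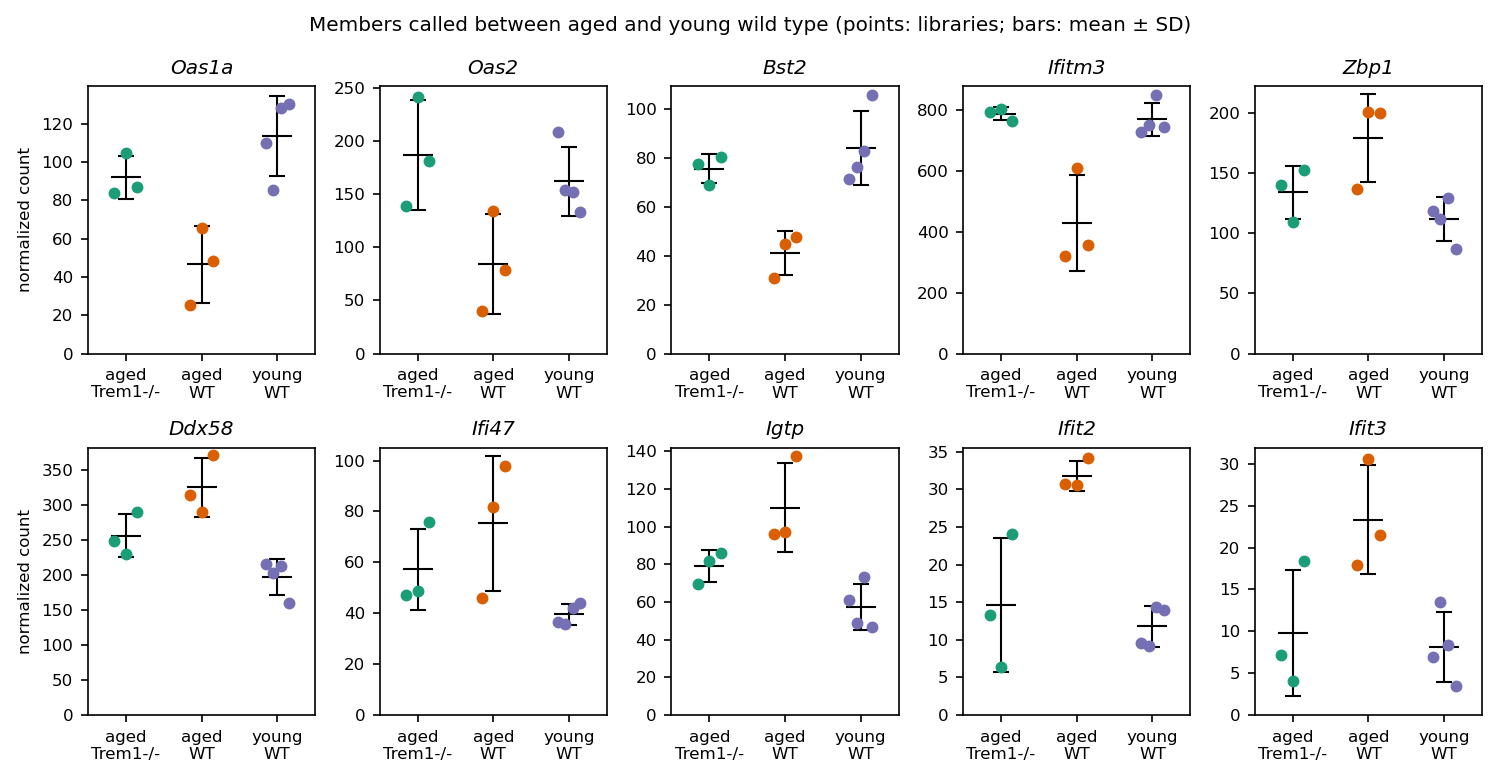
Normalized counts of the 10 genes called between aged and young wild type, by library (points), with the mean ± SD of each group (n = 3 aged Trem1-/-, 3 aged wild type, 4 young wild type), each panel from 0. Oas1a, Oas2, Bst2 and Ifitm3 have their lowest group mean in aged wild type and the other 6 their highest.

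Of 7 restriction factors and viperin-locus genes, the membrane proteins Ifitm3 and Bst2 passed. Ifitm3 (ENSMUSG00000025492.6, GRCm38 chromosome 7, 141009586 to 141010770, minus strand), which blocks fusion of viruses with endosomes, had 795, 806 and 765 normalized counts in aged Trem1-/-, 319.98, 609.995 and 358 in aged wild type, and 729, 754, 851 and 746 in young wild type. Aged wild type was below all other libraries, with replicate 4 nearest to them, and the aged Trem1-/- libraries lay within the range of the young ones. Ifitm3 had a log2 fold change of -0.90 ± 0.18 SE, limma adjusted p = 0.00297, in aged against young wild type, and of 0.93 ± 0.19 SE, limma adjusted p = 0.00837, in aged Trem1-/- against aged wild type. Per kilobase of exon Ifitm3 had the highest level of the 43 genes, with 1163 ± 31.2 normalized counts per kilobase in aged Trem1-/-, 633 ± 232 in aged wild type and 1136 ± 81.3 in young wild type (SD, n = 3, 3 and 4). Gbp3 and Samhd1 followed, with means of 182 and 166 over all libraries on that scale.

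Bst2 (ENSMUSG00000046718.8, GRCm38 chromosome 8, 71534255 to 71537456, minus strand), the gene of tetherin, which holds budding virions at the cell surface, had 77.7, 68.9 and 80.3 normalized counts in aged Trem1-/-, 30.7, 44.7 and 47.6 in aged wild type, and 71.5, 76.4, 82.9 and 106 in young wild type. All 3 aged wild-type libraries were lower than the other 7, and aged Trem1-/- overlapped young wild type. Bst2 had a log2 fold change of -1.03 ± 0.19 SE, limma adjusted p = 0.00188, in aged against young wild type, and of 0.89 ± 0.20 SE, limma adjusted p = 0.0132, in aged Trem1-/- against aged wild type. Bst2 also marks plasmacytoid dendritic cells. Of the 5 tested markers of those cells, the other 4 (Ly6d, Tcf4, Ccr9 and Pacsin1) were higher in aged than in young wild type with limma, opposite to Bst2. The 8 markers summed to 519 to 874 normalized counts in aged Trem1-/-, 874 to 1709 in aged wild type and 452 to 549 in young wild type. Most of this was Tcf4 and Ly6d, with means of 841 and 287 in aged wild type. Siglech, Cox6a2 and Klk1 were below the minimum, and Siglech averaged 1.69 in aged wild type. The B cell marker sums given above were also highest in aged wild type. Whether the number of plasmacytoid dendritic cells differed was not tested.

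Rsad2, which encodes viperin, an enzyme that makes a chain-terminating nucleotide, had 17.4, 7.21 and 20.6 normalized counts in aged Trem1-/-, 15.4, 265 and 16.2 in aged wild type, and 23.5, 13.5, 30.02 and 4.65 in young wild type. Aged wild-type replicate 4 stood far above the other 9 libraries, and replicates 3 and 6 were within the young range. Its log2 fold change in aged against young wild type had a large error (1.41 ± 0.90 SE, limma adjusted p = 0.251), and in aged Trem1-/- against aged wild type it was -1.51 ± 0.96 SE, limma adjusted p = 0.293. Cmpk2, its neighbour on chromosome 12 and a nucleotide kinase of mitochondria, had 31.7, 20.8 and 52.8 normalized counts in aged Trem1-/-, 38.4, 27.3 and 51.2 in aged wild type, and 33.99, 35.1, 45.6 and 44.2 in young wild type. In aged wild-type replicate 4, where Rsad2 was highest, Cmpk2 was the lowest of that group. Mx1 and Mx2, dynamin-like GTPases that block viral nucleoproteins, did not pass. Mx1 averaged 41.1 ± 17.2 normalized counts in aged Trem1-/-, 37.9 ± 12.9 in aged wild type and 57.9 ± 9.62 in young wild type (SD, n = 3, 3 and 4). Mx2 had 19.4, 12.02 and 18.4 normalized counts in aged Trem1-/-, 8.96, 16.4 and 17.97 in aged wild type, and 21.8, 25.2, 22.8 and 24.4 in young wild type, with aged wild type below young wild type in every library (log2 fold change -0.72 ± 0.29 SE, limma adjusted p = 0.0755). Samhd1, which depletes the nucleotides that retroviruses need, averaged 1487 ± 195 normalized counts in aged Trem1-/-, 1695 ± 128 in aged wild type and 1399.8 ± 121 in young wild type (SD, n = 3, 3 and 4), with a log2 fold change in aged against young wild type of 0.28 ± 0.11 SE, limma adjusted p = 0.0839.

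The ISG15 system and the ubiquitin ligases gave no call among 3 tested genes in the aged comparisons. Usp18, which removes ISG15 from proteins and dampens the type I receptor, had 32.7, 35.3 and 39.001 normalized counts in aged Trem1-/-, 19.2, 41.5 and 29.6 in aged wild type, and 18.3, 20.9, 40.8 and 11.6 in young wild type. Its aged wild-type and young libraries overlapped over most of their range. Herc6, the ligase for ISG15 in the mouse, averaged 62.3 ± 10.2 normalized counts in aged Trem1-/-, 68.4 ± 18.2 in aged wild type and 63.9 ± 8.86 in young wild type (SD, n = 3, 3 and 4). Trim30a, a regulator of NF-kB signalling, averaged 376 ± 22.7 normalized counts in aged Trem1-/-, 303 ± 83.4 in aged wild type and 294 ± 50.9 in young wild type (SD, n = 3, 3 and 4).

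The guanylate-binding proteins, large GTPases that attack vacuoles of intracellular microbes, had log2 fold changes from -0.27 to 0.42 in aged against young wild type and from -0.15 to 0.058 in aged Trem1-/- against aged wild type, and none of the 4 passed. Gbp2 averaged 242 ± 44.9 normalized counts in aged Trem1-/-, 247 ± 62.3 in aged wild type and 246 ± 55.4 in young wild type (SD, n = 3, 3 and 4), so its group means differed by less than the spread within each group. Gbp3 averaged 567 ± 96.7 normalized counts in aged Trem1-/-, 541 ± 61.4 in aged wild type and 655 ± 82.5 in young wild type, and Gbp7 averaged 286 ± 30.1 normalized counts in aged Trem1-/-, 308 ± 79.5 in aged wild type and 309.9 ± 26.7 in young wild type (SD, n = 3, 3 and 4), each with overlapping libraries. Gbp5, a promoter of inflammasome assembly, had 108, 75.3 and 129.6 normalized counts in aged Trem1-/-, 98.6, 84.02 and 175 in aged wild type, and 72.3, 100.4, 75.7 and 92.98 in young wild type, and aged wild-type replicate 6 was the highest of the 10 libraries.

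Of the 4 immunity-related GTPases, which act on the same vacuoles and are strongly induced by interferon gamma, 2 were higher in aged than in young wild type. Igtp (ENSMUSG00000078853.8, GRCm38 chromosome 11, 58199556 to 58207591, plus strand), also called Irgm3, had 69.5, 81.7 and 86.03 normalized counts in aged Trem1-/-, 95.99, 97.1 and 137 in aged wild type, and 61.01, 48.6, 73.3 and 46.5 in young wild type. The aged wild-type libraries were above all others, and aged Trem1-/- overlapped young wild type. Igtp had a log2 fold change of 0.93 ± 0.19 SE, limma adjusted p = 0.00359, in aged against young wild type, and of -0.46 ± 0.21 SE, limma adjusted p = 0.141, in aged Trem1-/- against aged wild type. Exons of Igtp overlap those of Irgm2 (8.01% of its exonic bases). Ifi47 (ENSMUSG00000078920.3, GRCm38 chromosome 11, 49076587 to 49096974, plus strand) had 46.999, 48.9 and 75.7 normalized counts in aged Trem1-/-, 46.1, 81.8 and 97.9 in aged wild type, and 36.6, 35.7, 42.03 and 44.2 in young wild type. Aged wild-type replicate 3 was just above the highest young library, and replicates 4 and 6 were higher. Ifi47 had a log2 fold change of 0.85 ± 0.26 SE, limma adjusted p = 0.0248, in aged against young wild type, and of -0.36 ± 0.27 SE, limma adjusted p = 0.385, in aged Trem1-/- against aged wild type. The call of Ifi47 in aged against young wild type was lost without aged wild-type replicate 4 or 6 or young replicate A or B (limma adjusted p up to 0.116). Irgm1 and Irgm2 had log2 fold changes of 0.22 ± 0.19 and 0.28 ± 0.15 in aged against young wild type and did not pass (limma adjusted p = 0.4 and 0.189).

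The remaining 5 tested genes did not pass. Phf11d, a PHD finger protein, had 74.6, 61.7 and 69.97 normalized counts in aged Trem1-/-, 24.3, 88.4 and 37.7 in aged wild type, and 83.7, 66.5, 78.1 and 103 in young wild type. Aged wild-type replicates 3 and 6 were below all young libraries and replicate 4 was within their range (log2 fold change -0.90 ± 0.34 SE, limma adjusted p = 0.0585). Rtp4, a receptor transport protein, had 85.8, 76.1 and 84.9 normalized counts in aged Trem1-/-, 28.2, 105 and 61.1 in aged wild type, and 85.4, 67.7, 86.5 and 94.1 in young wild type, with aged wild-type replicates 3 and 4 at the low and the high end of all libraries. Slfn5, a Schlafen protein, had 387, 356 and 435 normalized counts in aged Trem1-/-, 157, 396 and 287 in aged wild type, and 324, 286, 398 and 223 in young wild type, and aged wild-type replicate 3 was again the lowest library. Parp14, an ADP-ribosyltransferase, averaged 613 ± 105 normalized counts in aged Trem1-/-, 474 ± 94.1 in aged wild type and 589.8 ± 53.8 in young wild type, and Xaf1, a partner of the apoptosis inhibitor XIAP, averaged 34.7 ± 6.02 normalized counts in aged Trem1-/-, 36.9 ± 19.8 in aged wild type and 42.9 ± 15.7 in young wild type (SD, n = 3, 3 and 4).

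The 4 genes below the minimum were Isg15, Cxcl10, Ifi44 and Ifit3b. Isg15, the ubiquitin-like modifier, had 12, 10 and 5 reads in aged Trem1-/-, 1, 28 and 13 in aged wild type, and 4, 5, 12 and 5 in young wild type, so 2 aged wild-type libraries gave both the lowest and the highest count. Cxcl10, a chemokine for T cells, had 1, 3 and 1 reads in aged Trem1-/-, 2, 0 and 11 in aged wild type, and 8, 3, 2 and 7 in young wild type. Ifi44 had 29 reads and Ifit3b 19 reads over all libraries. Tested with limma without a minimum, 0 of the 4 passed in any comparison, where 10.4% of all genes passed in aged against young wild type, 5.12% in aged Trem1-/- against aged wild type and 0.712% in aged Trem1-/- against young wild type. At an unadjusted p under 0.05 there was 1, Ifi44 in aged Trem1-/- against young wild type, where 6.40% of all genes passed that threshold (log2 fold change 1.64 ± 0.77 SE, limma adjusted p = 0.762). edgeR and DESeq2 were not run on these 4 genes. Differences in them were not detectable at this depth.

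In aged Trem1-/- against aged wild type, 4 of the 39 tested genes (10.3%) passed, and all 4 were higher in the libraries labelled Trem1-/-. They were Oas2, Oas1a, Ifitm3 and Bst2. The background was 18.4% of all genes, 11.5% higher and 6.82% lower. With limma over all 10 libraries the share of the 39 genes was thus below it here as well. Without aged wild-type replicate 4 their share was above the background, as given below. The median SE of the 39 was 0.27, beside 0.21 over all genes. Because the aged comparisons share the aged wild-type libraries, the 4 genes that passed are also given against young wild type. There aged Trem1-/- had log2 fold changes of 0.19 ± 0.34 for Oas2, -0.29 ± 0.27 for Oas1a, 0.036 ± 0.18 for Ifitm3 and -0.14 ± 0.19 for Bst2. None was lower by limma or by edgeR, where edgeR called 8.26% of all genes lower, while DESeq2 called Ifit2 lower, with 8.96% of all genes. At an unadjusted p under 0.05 there were 10 with limma, 12 with edgeR and 11 with DESeq2, against 34.0%, 34.0% and 31.5% of all genes. The median log2 fold change of the 39 genes was 0.084, beside 0.019 over all genes. Libraries of the 2 groups did not overlap for 7 of 39 genes (17.9%, against 34.9% of all genes). Of these, 4 were higher in aged Trem1-/- (19.4% of all genes) and 3, Ddx58, Ifit2 and Igtp, lower (15.5% of all genes).

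**Figure D3:**
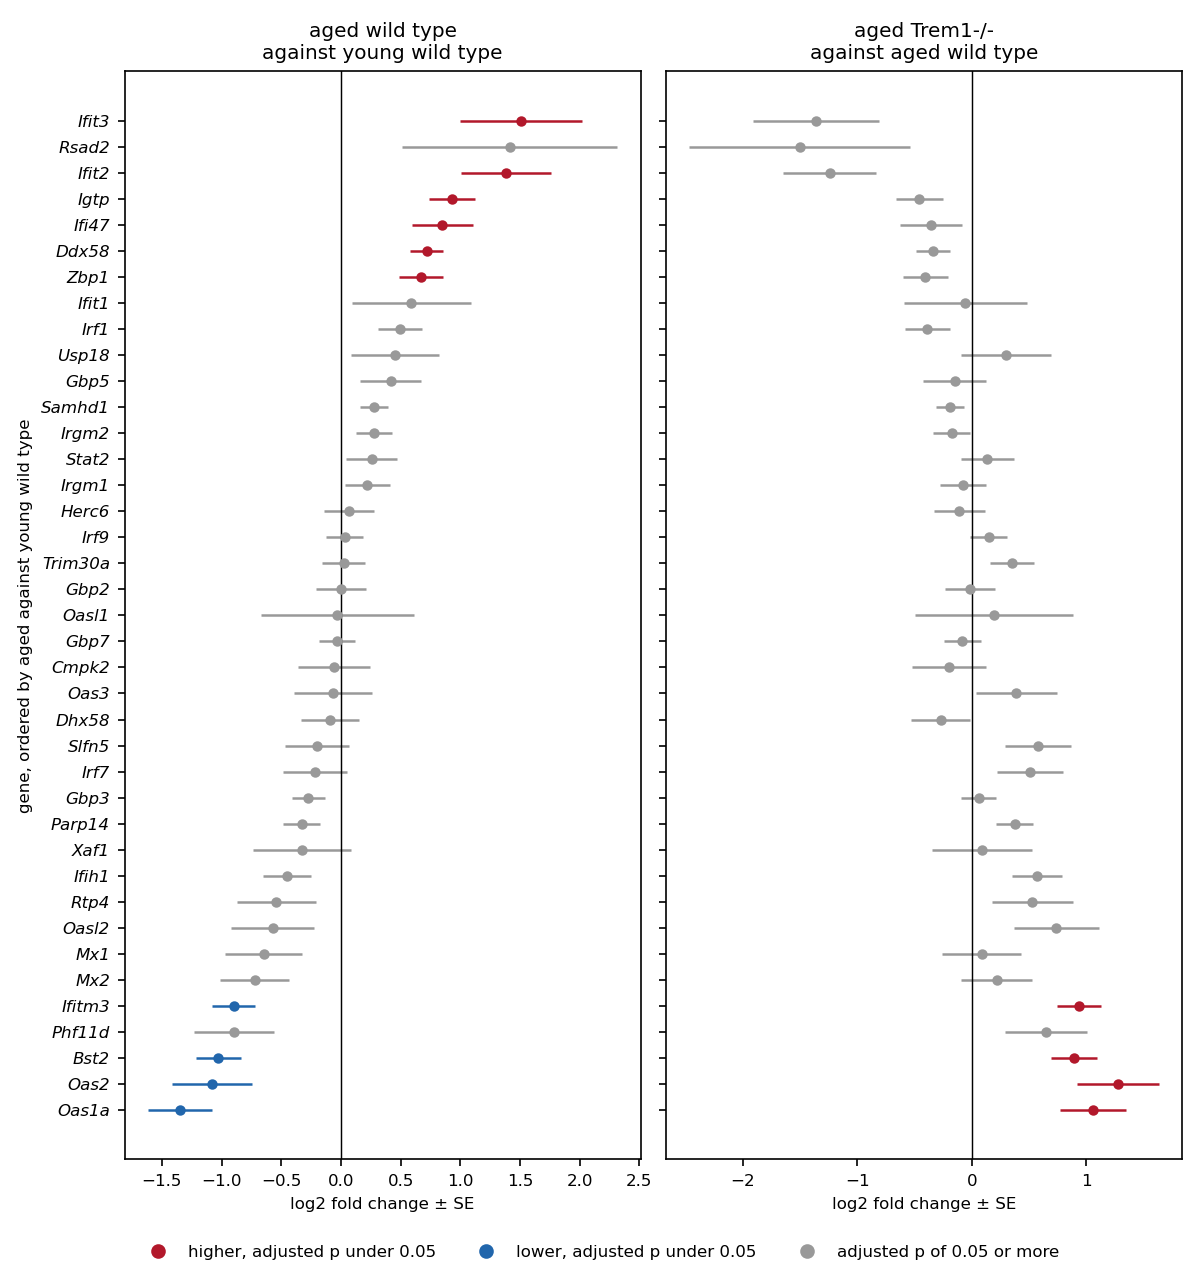
Log2 fold change ± SE of the 39 tested genes in aged against young wild type (left) and in aged Trem1-/- against aged wild type (right), in the same gene order; red and blue points passed limma's adjusted p of 0.05. The aged wild-type libraries enter both panels, so opposite signs are not independent. In the left panel 6 genes are red and 4 blue, and in the right panel 4 are red.

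In aged Trem1-/- against young wild type 0 of the 39 genes passed with limma or edgeR, and 0 of 38 with DESeq2, which gave Rsad2 no adjusted p. Of all genes, 0.921%, 0.695% and 3.90% passed with limma, edgeR and DESeq2. At an unadjusted p under 0.05 each of the 3 tools gave 2, against 14.4%, 14.8% and 13.4% of all genes with limma, edgeR and DESeq2. With limma these were Ddx58 (log2 fold change 0.38 ± 0.14 SE, limma adjusted p = 0.234) and Igtp (0.47 ± 0.19 SE, limma adjusted p = 0.282). Log2 fold changes of the 39 genes ran from -0.56 to 0.75 with a median of 0.11 and a median SE of 0.25, so small differences would not have been called. Libraries did not overlap for 6 of 39 genes (15.4%, against 15.8% of all genes). Higher ones made up 8.05% and lower ones 7.72% of all genes. Mx2 was lower and Irf9, Stat2, Ddx58, Trim30a and Ifi47 were higher in every aged Trem1-/- library than in any young one, without passing.

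Within the aged wild-type group the genes diverged between libraries. Replicate 3 held the lowest of the 3 aged wild-type values for 34 of 39 genes (87.2%), against 37.1% of all genes tested. The exceptions, with replicate 4 lowest, were Ddx58, Ifit2, Cmpk2, Gbp5 and Gbp7. Replicate 3 was also the lowest of all 10 libraries for 18 of the 39 genes (46.2%, against 22.2% of all genes), whereas replicates 4 and 6 were the highest of all 10 for 10 and 11 genes (25.6% and 28.2%, against 8.52% and 11.0% of all genes). Leaving aside the 10 genes called between the aged and young groups, replicate 3 was lowest of its group for 26 of 29 (89.7%). Values within aged wild type spanned more than 1 on the log2 scale for 15 of 39 genes (38.5%, against 17.4% of all genes). In aged Trem1-/- this held for 6 genes (15.4%, against 12.8%) and in young wild type for 7 (17.9%, against 14.7%). The genes share their libraries and are not independent of each other.

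**Figure D4:**
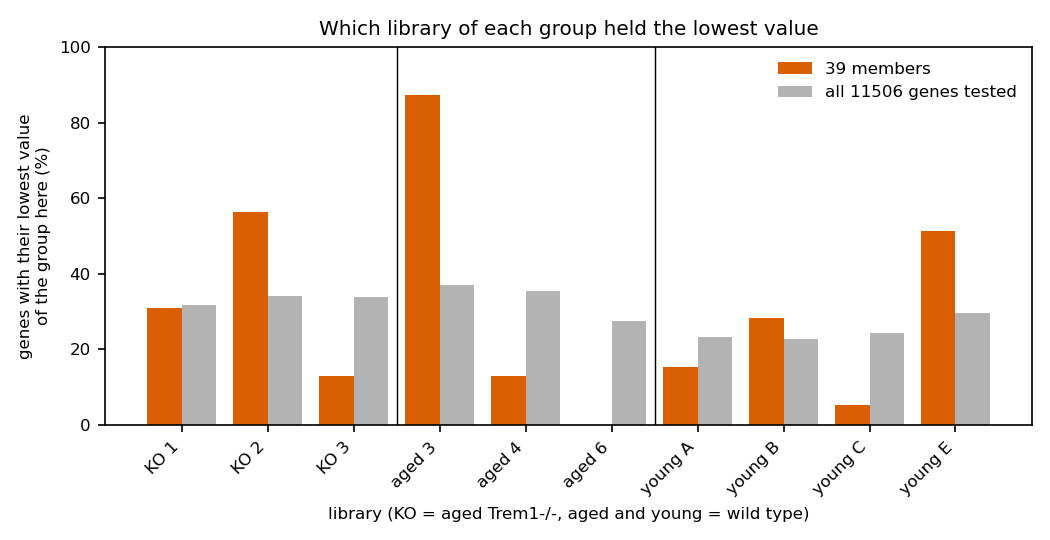
Percentage of the 39 tested genes (orange) and of all genes tested (grey) whose lowest value of the group fell in each library. Aged wild-type replicate 3 reaches 87.2% for the interferon-stimulated genes and 37.1% for all genes; aged wild-type replicate 6 is at 0 for the interferon-stimulated genes.

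The role classes differed in that group in their level relative to young wild type, while each class given here had its lowest median in replicate 3. Genes called between aged and young wild type enter these medians. Relative to the young mean, the median of the OAS family was -1.42, -0.044 and -0.32 on the log2 scale in aged wild-type replicates 3, 4 and 6. For the immunity-related GTPases it was 0.21, 0.55 and 0.91 in the same replicates, and for the 3 tested IFIT genes 1.18, 1.33 and 1.43. Replicate 3 was the shallowest library (2663744 reads) and held the lowest macrophage marker sum of all libraries (24345 normalized counts, against 39939 and 32131 in replicates 4 and 6). It also held the highest B cell marker sum (22552, against 14481 and 21295). Replicate 4 held an erythroid marker sum of 23701, against 530 and 473 in replicates 3 and 6. The part of these differences in the spread of the interferon-stimulated genes was not tested.

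The number of genes that passed depended on which library was left out. Without aged wild-type replicate 4, 8 genes were lower in aged than in young wild type (21.1% of all genes), the 4 above with Phf11d, Ifih1, Parp14 and Rtp4 (log2 fold change -1.40, -0.62, -0.47 and -0.98). Then 11 genes were higher in aged Trem1-/- than in aged wild type, where the background was 15.6% higher and 24.4% in either direction. The share of the family was above both, unlike in the fit over all libraries. The 7 added were Phf11d, Ifih1, Parp14, Rtp4, Irf7, Slfn5 and Trim30a. Without aged wild-type replicate 6, 2 genes, Ddx58 and Igtp, were higher in aged than in young wild type (10.1% of all genes), and Oas1a, Ifitm3 and Bst2 lower (14.3%). Without aged wild-type replicate 3, Irf1 passed, with a higher level in aged wild type (0.67 on the log2 scale, limma adjusted p = 0.0221) and Oas2 lost its call (-0.63, limma adjusted p = 0.108). Ifitm3 and Bst2 kept their calls in both aged comparisons, and Ddx58, Igtp and Oas1a in aged against young wild type, whichever library was left out.

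Upstream of these genes, transcripts of the interferons themselves were close to absent, while 4 of 5 tested receptor genes were lower in aged than in young wild type. The 21 interferon ligand genes held 2 to 10 reads per library in sum, 7 of them had no read in any library, and the highest count of any ligand in any library was 7 reads. A count of 0 allows up to 3 reads, which is 1.85 to 3.84 normalized counts depending on the library. Of 5 tested receptor genes, 4 (80%) were lower in aged than in young wild type, against 19.0% of all genes. In aged Trem1-/- against aged wild type 4 (80%) were higher, against 11.5% of all genes. The aged wild-type libraries are in both comparisons. Ifnar1 did not pass in either. It averaged 356 ± 45.7 normalized counts in aged Trem1-/-, 308 ± 40.9 in aged wild type and 374 ± 27.4 in young wild type. Ifnar2, a chain of the type I interferon receptor, averaged 295 ± 16.1 normalized counts in aged Trem1-/-, 157 ± 23.2 in aged wild type and 302 ± 17.98 in young wild type (SD, n = 3, 3 and 4). Its log2 fold change was -0.95 ± 0.12 SE, limma adjusted p = 0.000306 in aged against young wild type and 0.92 ± 0.13 SE, limma adjusted p = 0.00177 in aged Trem1-/- against aged wild type. Ifngr1 and Ifngr2, the chains of the interferon gamma receptor, had -0.50 ± 0.10 and -0.75 ± 0.16 in aged against young wild type and 0.48 ± 0.11 and 0.55 ± 0.17 in aged Trem1-/- against aged wild type. Il10rb, shared by the lambda interferon and interleukin 10 receptors, had -0.59 ± 0.10 and 0.50 ± 0.11 in these comparisons.

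Of 8 JAK and STAT signalling genes, Jak1 alone passed, higher in aged than in young wild type (log2 fold change 0.29 ± 0.087 SE, limma adjusted p = 0.023). This is 12.5%, against 14.3% of all genes higher. In aged Trem1-/- against aged wild type 0 passed, against 18.4% of all genes. There 1 had an unadjusted p under 0.05 (limma), against 34.0% of all genes. Among 22 upstream sensors, adaptors and kinases 3 were higher and 5 lower in aged than in young wild type. These are 13.6% and 22.7%, against 14.3% and 19.0% of all genes. Tlr9, the receptor for unmethylated DNA, which B cells also express, averaged 136 ± 45.9 normalized counts in aged Trem1-/-, 308 ± 99.8 in aged wild type and 75.5 ± 27.4 in young wild type (SD, n = 3, 3 and 4), with a log2 fold change of 2.05 ± 0.33 SE, limma adjusted p = 0.001 in aged against young wild type. Mb21d1, the gene of the DNA sensor cGAS, averaged 23.9 ± 11.4 normalized counts in aged Trem1-/-, 12.3 ± 4.70 in aged wild type and 43.8 ± 5.09 in young wild type (log2 fold change -1.81 ± 0.32 SE, limma adjusted p = 0.00162). Ifi204, a DNA-binding protein, and Tlr8 had log2 fold changes of -0.85 ± 0.19 and -0.84 ± 0.16. Of these 22 genes, 4 were higher and 1, Tlr9 (-1.17 ± 0.36), was lower in aged Trem1-/- than in aged wild type. These are 18.2% and 4.55%, against 11.5% and 6.82% of all genes. Ifi204, Tlr8 and the adaptor Myd88 had 0.82 ± 0.20, 0.73 ± 0.17 and 0.76 ± 0.19 there.

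Of 7 other tested interferon regulatory factors, Irf2, a repressor at ISRE sites, was lower in aged than in young wild type (log2 fold change -0.69 ± 0.12 SE, limma adjusted p = 0.00112). Irf8, a factor of myeloid and B cells, was lower in aged Trem1-/- than in aged wild type (-0.54 ± 0.17 SE, limma adjusted p = 0.0457). Each is 1 of 7 genes (14.3%), against 19.0% and 6.82% of all genes lower in these comparisons. Of 19 tested inhibitors of the pathway, 3 were higher and 2 lower in aged than in young wild type. These are 15.8% and 10.5%, against 14.3% and 19.0% of all genes. The higher ones were Cish, a cytokine-induced inhibitor of the SOCS family (1.39 ± 0.49), Nlrc5, a NOD-like protein that also drives MHC class I genes (1.08 ± 0.18), and Ptpn1, a phosphatase of the JAK kinases (0.60 ± 0.19). Those lower were the RNase H2 subunits Rnaseh2a and Rnaseh2c (-0.60 ± 0.19 and -0.49 ± 0.13). Nlrc5 was lower in aged Trem1-/- than in aged wild type (-0.92 ± 0.20), the 1 call among these 19 genes there (5.26%, against 6.82% of all genes lower).

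A further list of 75 tested interferon-stimulated genes gave 26 higher and 13 lower in aged than in young wild type, with a median of 0.26. These are 34.7% and 17.3%, or 52.0% in all, against the background of 14.3%, 19.0% and 33.3% given above. With limma the share was thus above it in this list and below it in the 39 genes. The largest changes were those of Ccl5, a chemokine made in quantity by T and NK cells, Cd274, the gene of the checkpoint ligand PD-L1, Iigp1, an immunity-related GTPase, and Gbp4. Ccl5 averaged 21.3 ± 0.743 normalized counts in aged Trem1-/-, 81.4 ± 26.9 in aged wild type and 11.1 ± 8.13 in young wild type (log2 fold change 3.05 ± 0.53 SE, limma adjusted p = 0.00142; SD, n = 3, 3 and 4). Cd274 averaged 149 ± 20.6 normalized counts in aged Trem1-/-, 295 ± 77.6 in aged wild type and 66.8 ± 22.7 in young wild type (log2 fold change 2.15 ± 0.25 SE, limma adjusted p = 0.00022). Iigp1 and Gbp4 had log2 fold changes of 2.13 ± 0.54 and 2.09 ± 0.26. Of the 75 genes, 7 were higher and 14 lower in aged Trem1-/- than in aged wild type (9.33% and 18.7%, or 28.0% in all, against 11.5%, 6.82% and 18.4% of all genes), with a median of -0.20. Of the 75, 1 (1.33%), Cd274, was higher in aged Trem1-/- than in young wild type, against 0.591% of all genes. In aged Trem1-/- against aged wild type, Ccl5, Gbp4 and Apobec3 had log2 fold changes of -1.83 ± 0.57, -1.63 ± 0.28 and -1.18 ± 0.15. Apobec3 encodes a cytidine deaminase that restricts retroviruses. Lgals3bp, a secreted glycoprotein, had 1.33 ± 0.18 in that comparison. The T and NK cell marker sums given above were highest in the aged wild-type libraries, and their part in these values was not tested.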

How the data were processed

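Per the labels' protocols, RNA was purified on Qiagen columns, reverse transcribed to full-length cDNA with a stranded kit (Takara), and made into libraries with NEBNext reagents. The submitters' processing notes name DESeq2 1.20.0, featureCounts 1.5.0-p3, STAR and fastp, with the GRCm38 build. Their order and settings, and any use of strand in counting, are not given in what was used here, so values of overlapping genes are uncertain.

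The authors deposited normalized counts per library (a signal, with their mean), all whole multiples of the value of 1 read within 1e-06 (100% of values), from which whole reads were recovered. Deposited beside them was a comparison of aged with young wild type, with the log2 fold change and error, the test score, and raw and adjusted p-values.

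Limma-trend (limma 3.58.1, R 4.3.3) was fitted to log2(normalized count + 1) of 11506 genes with a mean of at least 10, over all 10 libraries in 3 groups, with Benjamini-Hochberg adjustment at 0.05 over all genes. The script was tested on simulated data. edgeR 4.0.16 and DESeq2 1.42.0 on recovered reads, pseudocounts of 0.5 and 5, other minimums, TMM, fits on the compared groups, each library left out, and Ifit3 with Ifit3b summed were alternatives. GENCODE M21 (GRCm38) gave coordinates, with 53749 of 54532 symbols matched, and RefSeq (GRCm38.p6) the promoters. The genes and lists were chosen with earlier results of these data known. Values by library are given for genes that passed in an aged comparison, with others chosen after their values were seen, and for each further list up to 4 called genes with the largest change are given. The further interferon-stimulated list holds 84 genes, of which 83 were in the table. Counts of 0 and floors cover counting error only, since no molecular identifiers are named in the labels.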

Additional observations from a re-analysis of the deposited data

Results flagged for a closer look

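Stat2 in young wild-type replicate E had 109 normalized counts, far below the 180 to 192 of the other 3 young libraries. Its gap to the nearest of them was 0.859 of the group's range, above Dixon's critical value of 0.829 for 4 libraries. All 43 genes were screened in the young group, the only group of 4, and chance alone passes about 1 group in 20.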

How the results depend on the processing

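No called value changed sign under any alternative run. Leaving out each library in turn gave 5 to 12 called genes in aged against young wild type (2 to 6 higher, 3 to 8 lower), 2 to 11 in aged Trem1-/- against aged wild type (2 to 11 higher, 0 to 2 lower) and 0 in aged Trem1-/- against young wild type. The median of the tested genes ran from -0.12 to 0.24, from -0.18 to 0.18 and from 0.033 to 0.195 in these comparisons, so its sign in the first and second rests on single libraries. Fitted on the compared groups alone, aged Trem1-/- against aged wild type gave 2 called genes, both higher. With a pseudocount of 5 and with DESeq2, 1 gene, Ifit2, was lower there, against 7.32% and 8.96% of all genes. The other settings left the members' counts within 1.5 times those given. Over all genes, aged Trem1-/- against aged wild type gave 2112 calls, and 1171 on the compared groups alone, and aged Trem1-/- against young wild type gave 106, with 36 at a minimum of 50, 263 without a minimum, 299 on the compared groups and 448 with DESeq2. Leaving out each library gave 2753 to 4161, 1077 to 2800 and 0 to 268 calls over all genes in the 3 comparisons, with 0 in aged Trem1-/- against young wild type without aged Trem1-/- replicate 3. Without a minimum the median of all genes moved to 0.20 and -0.27 in the first 2 comparisons, because 36939 genes then entered. Beside the losses given with Ifit3, Ifi47, Oas1a and Oas2, Zbp1 and Ifit2 lost their call in aged against young wild type without aged wild-type replicate 6 (limma adjusted p = 0.0711 and 0.0565). The cause of these losses was not tested. Depth limits genes with few reads, such as Isg15 and Cxcl10. No paired analysis was possible because the aged groups share a single replicate number and the young replicates carry letters.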
